A study of Danio rerio with 17 samples.

Results

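RNA of kdrl reporter-positive cells from zebrafish larvae at 5 days post fertilization was compared with RNA of the reporter-negative cells of the same line. The members are 6 of the 17 sequencing libraries of the series, chosen by their labels: 3 libraries of kdrl positive cells and 3 of kdrl negative cells. Of 30220 genes in the table, 24903 had a normalized read count of at least 10 in 3 or more of these 6 libraries and were tested. The other libraries come from acta2 lines at 4 days and are not used.

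Both groups carry Tg(kdrl:mcherry), a transgene in which the promoter of kdrl drives the red fluorescent protein mCherry, so the positive cells are those in which that promoter was active enough to pass the sort. The submitters call the positive population endothelial and the negative one not endothelial, while the tissue entry of all 6 libraries names vascular smooth muscle. Cells were fixed by the MARIS method before fluorescence-activated sorting, RNA was taken with TRIzol, and libraries were primed with oligo dT and built with the TotalScript kit. The gate is not stated. Nothing says whether replicates came from separate clutches of larvae, so p-values measure the spread between these libraries, which may be technical. The negative cells are a mixture of other cell types, and how evenly the remaining tissues of the larva were recovered is not stated.

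Endothelial cells line the inside of blood and lymphatic vessels. They receive vascular endothelial growth factor (VEGF) through receptor tyrosine kinases, and kdrl is the main such receptor of growing zebrafish vessels. ETS and SoxF transcription factors set their identity, vascular cadherin and claudins seal their junctions, and Notch and BMP signals divide them into arterial, venous and lymphatic kinds. Early blood cells arise from a lineage shared with endothelium.

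The libraries held between 10474235 and 40868765 recovered reads, and 26351 to 29445 genes had at least 1 read. Within groups, libraries correlated across genes at r = 0.883 to 0.904 for kdrl positive and 0.912 to 0.943 for kdrl negative cells (log2 scale). The most abundant row, mitochondrial mt-rnr2, took 3.96% to 11.2% of reads. Because these are bulk samples, more cells of a type and more RNA per cell cannot be told apart.

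The reporter's own gene followed the sort. kdrl had 10556, 19330.1 and 5389 in kdrl positive libraries, against 232, 279 and 305 in kdrl negative libraries (normalized read counts). All positive libraries stood above all negative ones, with a log2 fold change, positive over negative, of 5.25 ± 0.45 (SE, n = 3 libraries per group) and an adjusted p of 0.000502. A remainder of kdrl reads was thus measured in each negative library.

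A gene was called when the Benjamini-Hochberg adjusted p of limma-trend, a linear model on log2(value + 1) moderated across all genes, was under 0.05. Of the tested genes, 789 (3.17%) were higher and 696 (2.79%) lower in kdrl positive cells, 5.96% in all. Counts of list members below are to be read beside these shares. The changes were large: 88 of the genes called higher had a log2 fold change over 4 and 40 of those called lower one under -4. The smallest called change was 1.18 on the high side and -1.31 on the low side. The groups did not overlap for 789 and 695 of the called genes, beside 15.3% of all tested genes without overlap on the high side and 14.2% on the low side. Where groups of a called gene are described below as apart, this follows from the call and is no added support. With the replicate number as a block, 1763 genes (7.08%) were higher and 1596 (6.41%) lower, and all 1485 calls of the unblocked fit were among them. Counts of list members given below with the block are to be read beside these larger shares, 7.08% and 6.41%. Genes called higher numbered 434 without positive replicate 1, 325 without negative replicate 1 and 369 without negative replicate 2. Those called lower numbered 224, 209 and 421 without negative replicates 1, 2 and 3.

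**Figure D1:**
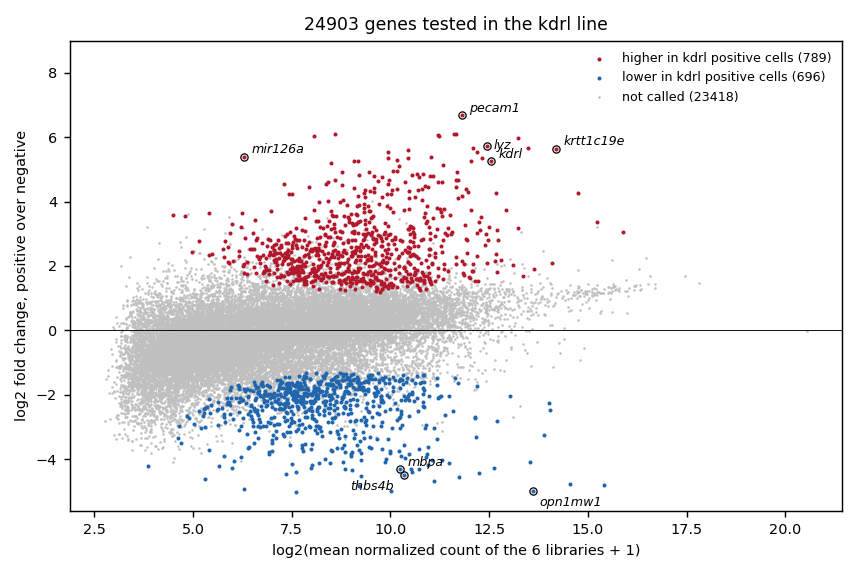
Each point is 1 of the 24903 genes tested, with the log2 of its mean normalized count over the 6 libraries on the x axis and its log2 fold change, kdrl positive over negative, on the y axis. Red points are the 789 genes called higher, blue points the 696 called lower, and circled genes are described in the text.

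The label was checked on 13 endothelial markers: cdh5, pecam1, kdrl, fli1a, fli1b, erg, tie1, egfl7, sox7, sox18, etv2, lmo2 and clec14a. Among them kdrl is the gene whose promoter drives the reporter. The lists that hold these markers were chosen with earlier results of these data known, so the check is not independent. All 13 were called higher, with a median log2 fold change of 4.92, beside a median of -0.05 over all tested genes. The largest rise among the genes open to naming (a gene symbol, no overlap, a mean of at least 100 in the higher group) was that of pecam1, an adhesion molecule of endothelial cells and platelets. It had 6354, 12487 and 2491 in kdrl positive libraries, against 51.8, 49.4 and 67.1 in kdrl negative libraries (log2 fold change 6.69 ± 0.52, adjusted p = 0.000502). No marker was absent from the negative libraries, where pecam1 still had reads in each.

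Receptors of the VEGF and Tie families were among the genes that rose. Of 12 listed receptors tested, 7 were called higher (58.3%, beside 3.17% of all genes) and none lower, with a median of 3.10. flt1, which in mammals and fish binds VEGF without strong signaling, had 3351, 5373 and 1823 in kdrl positive libraries, against 118, 75.9 and 143 in kdrl negative libraries (log2 fold change 4.87 ± 0.44, adjusted p = 0.000502). kdr, another kinase receptor of VEGF in zebrafish, had 612, 1042 and 413 in kdrl positive libraries, against 117, 63.6 and 59.4 in kdrl negative libraries (log2 fold change 3.06 ± 0.44, adjusted p = 0.00418). In both genes the lowest positive library, replicate 3, exceeded the highest negative one.

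flt4, the receptor of VEGF-C that venous and lymphatic cells need, had 3146, 4576 and 2766 in kdrl positive libraries, against 289, 390.2 and 338 in kdrl negative libraries (log2 fold change 3.34 ± 0.33, adjusted p = 0.000675). tie1, an orphan partner of the angiopoietin receptor, had 6919, 16015 and 4776 in kdrl positive libraries, against 134, 127 and 305 in kdrl negative libraries (log2 fold change 5.54 ± 0.50, adjusted p = 0.000502). tek, the angiopoietin receptor itself, had 2582, 4039 and 1036 in kdrl positive libraries, against 108, 61.8 and 106 in kdrl negative libraries (log2 fold change 4.62 ± 0.49, adjusted p = 0.00103). These 3 genes were also without overlap. acvrl1, the BMP receptor whose loss gives arteriovenous malformations, rose by 3.15 (adjusted p = 0.01).

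The neuropilins, co-receptors of VEGF and semaphorins, were not called. nrp1a had 4512, 9453 and 1853 in kdrl positive libraries, against 2773, 2885 and 3164 in kdrl negative libraries, with overlapping groups and a log2 fold change of 0.55 (adjusted p = 0.553). nrp1b had a log2 fold change of 0.61 (adjusted p = 0.524) at 65.1, 51.2 and 47.7 normalized counts in kdrl positive libraries and 67.8, 33.5 and 18.7 in kdrl negative ones. The values of nrp1a span both groups, while those of nrp1b are low throughout.

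**Figure D2:**
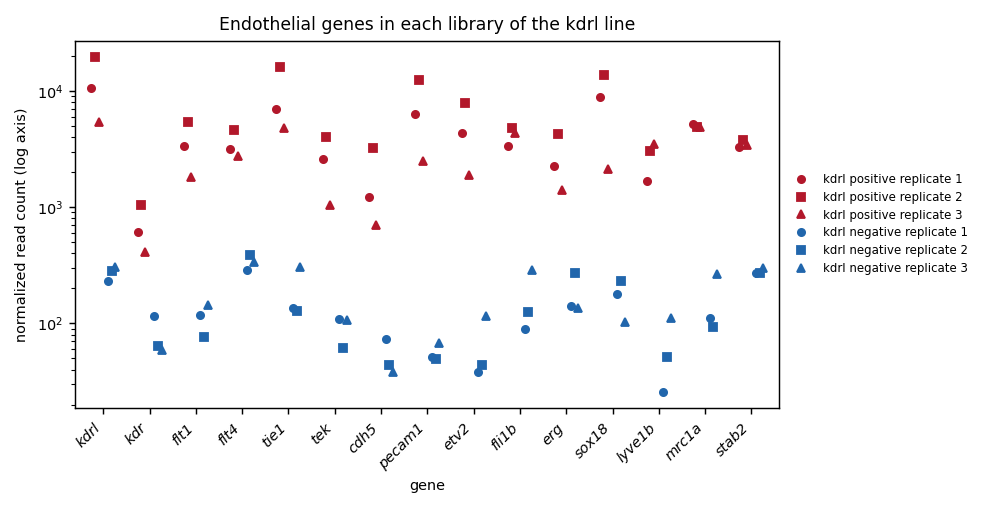
Normalized read counts (log axis) of 15 endothelial genes on the x axis in each of 3 kdrl positive libraries (red, left of each pair) and 3 kdrl negative libraries (blue); marker shape gives the replicate number. The 2 groups are apart for each gene shown; for cdh5, the positive libraries sit between 704 and 3201 and the negative ones between 38.2 and 73.9.

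Ligands of these receptors were mixed, with a median of 0.16. Of 18 tested, 5 were called higher (27.8%, beside 3.17% of all genes) and 1 lower (5.56%, beside 2.79%). angpt2a, a Tie2 ligand made by endothelium itself, had 457, 849 and 606 in kdrl positive libraries, against 35.1, 21.2 and 22.1 in kdrl negative libraries (log2 fold change 4.55 ± 0.40, adjusted p = 0.000502). Both genes for PDGF-B, the factor by which endothelium attracts mural cells, rose: pdgfbb had 815, 1879 and 643 in kdrl positive libraries, against 162, 139 and 125 in kdrl negative libraries (log2 fold change 2.81 ± 0.42, adjusted p = 0.00501), and pdgfba, listed in the table under the clone name si:ch211-79m20.1, rose by 2.83 (adjusted p = 0.00431). The groups did not overlap for any of the 3.

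The ligands vegfaa, vegfc and angpt1 did not pass the test. vegfaa, the main ligand of kdrl, had 475, 234 and 254 in kdrl positive libraries, against 381, 452 and 420.1 in kdrl negative libraries, a log2 fold change of -0.45 with an adjusted p of 0.474. vegfc, the ligand of flt4, had a log2 fold change of 0.97 (adjusted p = 0.28), and angpt1, the agonist of Tie2, one of -0.34 (adjusted p = 0.831). figf, which encodes VEGF-D, was called lower at -1.88 (adjusted p = 0.0394), and pgfb and pdgfd were called higher at 2.01 and 2.17. Calls were lost for figf without positive replicates 1 and 3 or negative replicates 1, 2 and 3 (adjusted p 0.0616 to 0.14), pgfb without negative replicate 1 (adjusted p = 0.0535) and pdgfd without negative replicates 1, 2 and 3 (adjusted p 0.0555 to 0.0853). The higher members numbered 3 with negative replicate 1 left out.

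Among 39 transcription factors linked to endothelial identity, 13 were called higher and none lower, 1 with the block (median 1.15). etv2, the ETS factor at the top of the endothelial program in the embryo, had 4298, 7897 and 1869 in kdrl positive libraries, against 38.1, 44.1 and 116 in kdrl negative libraries (log2 fold change 6.08 ± 0.57, adjusted p = 0.000502). fli1b, another ETS factor, had 3374, 4794 and 4351 in kdrl positive libraries, against 89.2, 125 and 285 in kdrl negative libraries (log2 fold change 4.80 ± 0.43, adjusted p = 0.000502). The positive libraries of fli1b lay close together, whereas those of etv2 differed widely between replicates 2 and 3.

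The related ETS genes fli1a (3.05), erg (3.77) and ets1 (2.49) also rose, in log2 fold change. The SoxF genes, which act downstream of VEGF in arteries and veins, rose as well: sox18 had 8841, 13529 and 2137 in kdrl positive libraries, against 179, 233 and 104 in kdrl negative libraries (log2 fold change 5.27 ± 0.62, adjusted p = 0.0016), and sox7 changed by 4.46 (adjusted p = 0.00136). lmo2, a partner protein of blood and vessel transcription complexes, changed by 4.25, and hhex, a homeobox gene of early endothelium, blood and liver, by 5.19. bcl6b, a zinc finger repressor, had 4499, 7434 and 2307 in kdrl positive libraries, against 72.4, 45.9 and 79.8 in kdrl negative libraries (log2 fold change 6.03 ± 0.45, adjusted p = 0.000502).

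The flow-induced factor klf2a was called with a smaller rise of 1.84 (adjusted p = 0.0315), at 6699, 9190.0 and 4210.2 in kdrl positive libraries, against 1313, 2597 and 1664 in kdrl negative libraries. It is expressed in both groups at levels that differ less than those of the ETS genes. nr2f2, the venous nuclear receptor, had a log2 fold change of -0.52 (adjusted p = 0.519) and prox1a, the lymphatic homeobox gene, one of 0.18 (adjusted p = 0.781). The call was lost for klf2a without positive replicates 1 and 2 or negative replicates 1, 2 and 3 (adjusted p 0.0535 to 0.1).

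Of 30 junction and adhesion genes tested, 15 were called higher and none lower, with a median of 1.75. cdh5, the vascular cadherin, had 1211, 3201 and 704 in kdrl positive libraries, against 73.9, 44.1 and 38.2 in kdrl negative libraries (log2 fold change 4.78 ± 0.53, adjusted p = 0.0012). ptprb, the phosphatase that associates with this cadherin, had 5456, 11042 and 2159.6 in kdrl positive libraries, against 182, 182 and 227 in kdrl negative libraries (log2 fold change 4.68 ± 0.52, adjusted p = 0.00115). cldn5b, a claudin of tight junctions, had 5344, 6515 and 1678 in kdrl positive libraries, against 285, 251 and 53.5 in kdrl negative libraries (log2 fold change 4.62 ± 0.68, adjusted p = 0.00449). The groups were apart in all 3, and the highest positive library was replicate 2.

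Other members that rose were clec14a (6.11), pcdh12 (4.35), thsd1 (4.28), podxl (3.53), jam2a (3.48), esama (3.24), mcamb (3.02) and cgnl1 (1.99) in log2 fold change. podxl encodes the sialomucin podocalyxin of the luminal surface, and esama and jam2a encode immunoglobulin-type junction proteins. sele, the selectin by which activated endothelium catches leukocytes, had 4270.1, 4976 and 359 in kdrl positive libraries, against 84.6, 60.03 and 58.6 in kdrl negative libraries (log2 fold change 4.86 ± 0.83, adjusted p = 0.00939). Its positive replicate 3 was far below the other two but still above the negative libraries.

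The list of signaling and other pan-endothelial genes had the highest share of calls of the 37 lists, 24 of 32 higher and 1 lower, with a median of 3.36. rasip1, a Rap1 effector needed for vessel lumens, had 3452, 7117 and 1637 in kdrl positive libraries, against 81.5, 61.8 and 104 in kdrl negative libraries (log2 fold change 5.39 ± 0.50, adjusted p = 0.000502). egfl7, a secreted protein of vessel tube formation, had 5752, 10767 and 2577 in kdrl positive libraries, against 169.9, 171 and 194 in kdrl negative libraries (log2 fold change 4.92 ± 0.47, adjusted p = 0.000585). tmem88a, a membrane protein that dampens Wnt signaling in heart and blood precursors, had 1544, 2981 and 1242 in kdrl positive libraries, against 24.4, 44.1 and 72.99 in kdrl negative libraries (log2 fold change 5.35 ± 0.48, adjusted p = 0.000502). Replicate 2 was the highest positive library for all 3.

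Further members were exoc3l2a (4.18), arhgef9b (3.23), she (3.48), myct1a (4.67), myct1b (4.56) and ecscr (4.35) in log2 fold change, all called. aqp8a.1, a water channel of growing vessels, had 1479, 3718 and 849 in kdrl positive libraries, against 36.6, 82.98 and 173 in kdrl negative libraries (log2 fold change 4.35 ± 0.63, adjusted p = 0.00434), and vwf, the von Willebrand factor of platelet capture, had 2669, 6585 and 963 in kdrl positive libraries, against 191, 145 and 129.9 in kdrl negative libraries (log2 fold change 4.06 ± 0.59, adjusted p = 0.00431). Both had their lowest positive value in replicate 3 and showed no overlap with the negative libraries. sh2d3cb was the lower member at -1.65 (adjusted p = 0.0462); the call was lost for sh2d3cb without positive replicates 1, 2 and 3 or negative replicates 1, 2 and 3 (adjusted p 0.0669 to 0.157).

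mir126a, the locus of an endothelial microRNA, was among the 12 largest rises at 5.39 (adjusted p = 0.00426). It rests on 703 reads in the positive and 6 reads in the negative libraries, a ratio of 90.7 after scaling for depth, with a 95% counting interval of 41.5 to 248. Libraries were primed with oligo dT, so these are reads over the annotated locus and not mature microRNA. Also among the 12 were ncam3, a neural cell adhesion molecule, at 3826, 13555 and 1272 in kdrl positive libraries, against 96.02, 33.5 and 59.4 in kdrl negative libraries (log2 fold change 6.10 ± 0.73, adjusted p = 0.00176), and vsg1, at 9361, 12757 and 3740.1 in kdrl positive libraries, against 109, 136 and 228 in kdrl negative libraries (log2 fold change 5.66 ± 0.48, adjusted p = 0.000502). The reference table gives both vsg1 and plvap, each a row of its own in the deposited table, as synonyms of plvapb, which encodes a protein of endothelial diaphragms. plvapb, on the pan-endothelial and venous lists, was therefore left unmatched, and vsg1 is not in the counts of these lists. plvap is in the pan-endothelial counts, matched there as a synonym of plvapa. Its log2 fold change was 4.79 in the authors' deposited table.

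Arterial and Notch genes were less uniform, with 8 of 34 called higher and 2 lower (median 0.68). hlx1, a homeobox gene, had 2382, 4389.8 and 1351 in kdrl positive libraries, against 95.3, 113 and 159 in kdrl negative libraries (log2 fold change 4.33 ± 0.44, adjusted p = 0.000833). cxcr4a, a chemokine receptor of arterial and tip cells, had 2364, 2629.6 and 697 in kdrl positive libraries, against 73.9, 127 and 166 in kdrl negative libraries (log2 fold change 3.80 ± 0.53, adjusted p = 0.00368). mfng, a fringe enzyme that modifies Notch, had 788, 923 and 954 in kdrl positive libraries, against 51.8, 88.3 and 136 in kdrl negative libraries (log2 fold change 3.36 ± 0.40, adjusted p = 0.0017). cx39.4, a gap junction gene that the reference table lists as gja4, rose by 3.74 (adjusted p = 0.00672).

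dll4, the Notch ligand of arteries and tip cells, had 5953, 9124 and 1189.9 in kdrl positive libraries, against 511, 489 and 502 in kdrl negative libraries (log2 fold change 3.001 ± 0.63, adjusted p = 0.0235), with positive replicate 3 far below the other two. jag2b, another Notch ligand, rose by 2.33 (adjusted p = 0.0268). The deltas dla and dlb, known from nerve cell precursors, were called lower at -1.49 and -1.43. These calls were lost for dll4 without positive replicates 1 and 2 or negative replicates 1 and 2 (adjusted p 0.0573 to 0.0816), jag2b without positive replicates 1 and 2 or negative replicates 1 and 2 (adjusted p 0.053 to 0.0897), dla without positive replicates 1 and 2 or negative replicates 1, 2 and 3 (adjusted p 0.081 to 0.155) and dlb without positive replicates 1 and 2 or negative replicates 1, 2 and 3 (adjusted p 0.0761 to 0.126). Higher members numbered 5 with positive replicates 1 and 2 or negative replicates 1 and 2 left out, and lower ones 4 with the block and 0 with positive replicates 1 and 2 or negative replicates 1, 2 and 3 left out.

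Members that did not pass include the arterial ligand efnb2a (log2 fold change 0.43, adjusted p = 0.74) and its venous receptor ephb4a (1.14, adjusted p = 0.151). The receptor notch1b had 4732, 9252 and 5668 in kdrl positive libraries, against 3076, 4744 and 3091 in kdrl negative libraries (log2 fold change 0.82, adjusted p = 0.246). notch3, the Notch receptor of mural cells, had 375, 291 and 484 in kdrl positive libraries, against 833, 899 and 726 in kdrl negative libraries, a log2 fold change of -1.12 with an adjusted p of 0.073, and of 0.0406 with the replicate block. The groups of notch3 do not overlap, and efnb2a was close to the detection filter in all libraries.

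Genes of venous, lymphatic and scavenger endothelium followed, with 12 of 31 called higher and 4 lower (median 0.97). lyve1b, a hyaluronan receptor of lymphatic and venous cells, had 1688, 3027 and 3515 in kdrl positive libraries, against 25.9, 51.2 and 111 in kdrl negative libraries (log2 fold change 5.60 ± 0.52, adjusted p = 0.000502). mrc1a, the mannose receptor, had 5202, 4873 and 4839 in kdrl positive libraries, against 111, 93.6 and 267 in kdrl negative libraries (log2 fold change 5.13 ± 0.41, adjusted p = 0.000502). stab2, a scavenger receptor, had 3292, 3743 and 3393 in kdrl positive libraries, against 268, 272 and 296 in kdrl negative libraries (log2 fold change 3.63 ± 0.30, adjusted p = 0.000502). For mrc1a and stab2 the 3 positive libraries were nearly equal.

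Other scavenging and uptake genes rose, in log2 fold change: stab1 (3.17), lyve1a (4.05), dab2 (4.38), gpr182 (4.14), lgmn (2.05) and fabp11a (3.22). dab2 is an adaptor of endocytosis and lgmn a lysosomal protease. dab2 had 3405, 3494 and 3322 in kdrl positive libraries, against 98.3, 162 and 268 in kdrl negative libraries, again with positive libraries that differ little. The 4 lower members were rspo3 (-2.01), nr2f1b (-2.15), svep1 (-1.70) and figf (-1.88), among them rspo3, a secreted Wnt enhancer, and svep1, a matrix protein of lymphatic growth that other cells make. Calls were lost for rspo3 without positive replicate 1 or negative replicates 1 and 2 (adjusted p 0.054 to 0.0835), nr2f1b without positive replicate 1 or negative replicates 1 and 2 (adjusted p 0.0535 to 0.11), svep1 without positive replicate 2 or negative replicates 1, 2 and 3 (adjusted p 0.0584 to 0.116) and figf without positive replicates 1 and 3 or negative replicates 1, 2 and 3 (adjusted p 0.0616 to 0.14). Lower members of the list numbered 0 with negative replicates 1 and 2 left out, 1 with positive replicate 1 left out and 2 with negative replicate 3 left out.

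Brain vessel and barrier genes had 10 of 36 called higher and none lower (median 0.83). abcb4, an efflux pump that serves zebrafish in the place of mammalian P-glycoprotein, had 2359, 4806 and 2634 in kdrl positive libraries, against 107, 72.4 and 186 in kdrl negative libraries (log2 fold change 4.76 ± 0.43, adjusted p = 0.000502). abcg2a, another efflux pump, had 3218, 5441 and 2716 in kdrl positive libraries, against 86.1, 157 and 328 in kdrl negative libraries (log2 fold change 4.45 ± 0.49, adjusted p = 0.00111). slco1d1, an organic anion transporter, had 1123, 1425 and 1313 in kdrl positive libraries, against 67.8, 72.4 and 134 in kdrl negative libraries (log2 fold change 3.86 ± 0.36, adjusted p = 0.000502). The positive libraries of slco1d1 lay close together.

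slc16a1a, a monocarboxylate carrier, changed by 3.37, and the caveolins cav1 and cav2, which form membrane pits, by 2.73 and 2.58. cldn5a was called at 1.79 (adjusted p = 0.0363) and foxq1b, a forkhead factor of brain vessels, at 2.09 (adjusted p = 0.0265). These 2 calls were lost for cldn5a without positive replicates 1 and 2 or negative replicates 1, 2 and 3 (adjusted p 0.0624 to 0.0957) and foxq1b without positive replicates 1 and 3 or negative replicates 1 and 2 (adjusted p 0.053 to 0.108).

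In the endocardium and valve list, 8 of 30 were called higher and 2 lower (median 0.66). gata5, a heart and gut GATA factor, had 398, 846 and 709 in kdrl positive libraries, against 61.7, 79.5 and 166 in kdrl negative libraries (log2 fold change 2.72 ± 0.46, adjusted p = 0.00874). crip2, a LIM protein of heart and vessels, had 6964, 10662 and 3161 in kdrl positive libraries, against 697, 1065 and 920.0 in kdrl negative libraries (log2 fold change 2.81 ± 0.46, adjusted p = 0.00763). hapln1a, a hyaluronan link protein also abundant in cartilage, was lower, with 525, 327 and 334 in kdrl positive libraries, against 5567, 4808 and 2454 in kdrl negative libraries (log2 fold change -3.38 ± 0.40, adjusted p = 0.0016). Its groups were far apart. The higher members numbered 4 with negative replicate 1 left out and 5 with positive replicates 1 and 2 or negative replicates 2 and 3 left out, and the lower 1 with positive replicate 2 or negative replicates 1 and 2 left out and 1 by edgeR.

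Flow response and vascular tone gave 9 of 34 higher and none lower, 1 with the block (median 0.72). edn1, the vasoconstrictor endothelin, had 494, 1319 and 1110.4 in kdrl positive libraries, against 73.2, 104 and 151 in kdrl negative libraries (log2 fold change 3.09 ± 0.45, adjusted p = 0.00434). Unlike most endothelial genes, its lowest positive library was replicate 1. The converting enzymes ece1 and ace, which act on endothelin and angiotensin, were called at 2.19 and 1.85, and the coagulation inhibitor tfpia at 1.53. The calls were lost for ece1 without positive replicates 1 and 2 or negative replicates 1, 2 and 3 (adjusted p 0.0551 to 0.105), ace without positive replicates 1 and 2 or negative replicates 1, 2 and 3 (adjusted p 0.067 to 0.128) and tfpia without positive replicates 1, 2 and 3 or negative replicates 1 and 2 (adjusted p 0.0587 to 0.117). Counts in the list were 4 with positive replicates 1 and 2 or negative replicates 1 and 2 left out and 5 with negative replicate 3 left out.

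Guidance and G protein-coupled receptors gave 16 of 51 higher and 5 lower (median 0.69). adgrl4, an adhesion receptor of angiogenesis, had 1762, 3587 and 1422 in kdrl positive libraries, against 50.3, 40.6 and 69.6 in kdrl negative libraries (log2 fold change 5.29 ± 0.42, adjusted p = 0.000502). plxnd1, the semaphorin receptor that steers intersegmental vessels, had 1061, 2191 and 763 in kdrl positive libraries, against 71.6, 131 and 129 in kdrl negative libraries (log2 fold change 3.49 ± 0.45, adjusted p = 0.00235). cxcr4b, a chemokine receptor, had 4089, 5192 and 1646 in kdrl positive libraries, against 236, 734 and 249.5 in kdrl negative libraries (log2 fold change 3.21 ± 0.54, adjusted p = 0.00894). All groups were apart.

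Receptor genes for circulating and local signals also rose, in log2 fold change: aplnrb (2.25), calcrlb (2.64), ramp2 (2.92), lpar5a (3.58) and f2rl2 (3.60), with edn2, an endothelin, at 3.31. aplnrb binds apelin, ramp2 and calcrlb form an adrenomedullin receptor, and f2rl2 belongs to the thrombin receptors. The lower members were sema3d (-2.50), sema3fa (-1.51), sema3c (-1.36), slit3 (-1.78) and robo1 (-1.40): 3 secreted semaphorins, a slit ligand and its receptor. These calls were lost for sema3d without negative replicate 2 (adjusted p = 0.0515), sema3fa without positive replicates 1 and 3 or negative replicates 1, 2 and 3 (adjusted p 0.0519 to 0.0971), sema3c without positive replicates 1, 2 and 3 or negative replicates 1, 2 and 3 (adjusted p 0.0639 to 0.13), slit3 without positive replicates 1 and 3 or negative replicates 2 and 3 (adjusted p 0.0701 to 0.11) and robo1 without positive replicates 1, 2 and 3 or negative replicates 1, 2 and 3 (adjusted p 0.0615 to 0.144). Lower members numbered 8 with the block, and 0 with negative replicate 2 left out, 1 with positive replicates 1 and 3 or negative replicate 3 left out, 2 with negative replicate 1 left out and 3 with positive replicate 2 left out.

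The TGF-beta and BMP list moved both ways, with a median of -0.09. Of 53 tested, 5 were higher (9.43%, beside 3.17% of all genes) and 6 lower (11.3%, beside 2.79%). bmp16, a BMP ligand, had 858, 1375 and 295 in kdrl positive libraries, against 91.4, 56.5 and 72.99 in kdrl negative libraries (log2 fold change 3.27 ± 0.53, adjusted p = 0.00741). tgfb1b, a TGF-beta ligand, had 363, 333 and 168 in kdrl positive libraries, against 52.6, 51.2 and 39.04 in kdrl negative libraries (log2 fold change 2.51 ± 0.42, adjusted p = 0.00869). fstb, a secreted follistatin that blocks activin, was lower, with 267, 253 and 141 in kdrl positive libraries, against 1078, 2724 and 1817 in kdrl negative libraries (log2 fold change -3.04 ± 0.42, adjusted p = 0.00366). The members called lower also held the antagonists nog1 (-2.36), nog2 (-2.27) and grem2b (-2.15). The antagonist calls were lost for nog1 without positive replicates 2 and 3 or negative replicates 1, 2 and 3 (adjusted p 0.0543 to 0.152), nog2 without negative replicate 2 (adjusted p = 0.0576) and grem2b without positive replicate 1 or negative replicates 2 and 3 (adjusted p 0.0655 to 0.122). With the block 11 were lower, where 6.41% of all genes were. Higher members numbered 3 with positive replicate 2 or negative replicates 1 and 2 left out, and lower ones 1 with negative replicate 2 left out, 2 with negative replicate 3 left out and 3 with positive replicate 2 left out.

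Basement membrane and vascular matrix genes were likewise split (median 0.14). Of 52 tested, 4 were higher (7.69%, beside 3.17% of all genes) and 3 lower (5.77%, beside 2.79%). With the block the counts were 10 and 10, beside 7.08% and 6.41% of all genes. The integrin subunits itga6b and itgb1b, which bind laminin, rose by 2.40 and 2.11. lamc3, a laminin chain, had 124, 203 and 125 in kdrl positive libraries, against 676, 1503 and 1047 in kdrl negative libraries (log2 fold change -2.79 ± 0.39, adjusted p = 0.00372). mmp14a, a membrane-bound protease that cuts collagen, had 444, 329.9 and 359 in kdrl positive libraries, against 1801, 3452 and 2091 in kdrl negative libraries (log2 fold change -2.65 ± 0.35, adjusted p = 0.00296). Higher members numbered 2 with negative replicate 2 left out and 7 with positive replicate 3 left out, and lower ones 7 with positive replicate 2 left out.

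**Figure D3:**
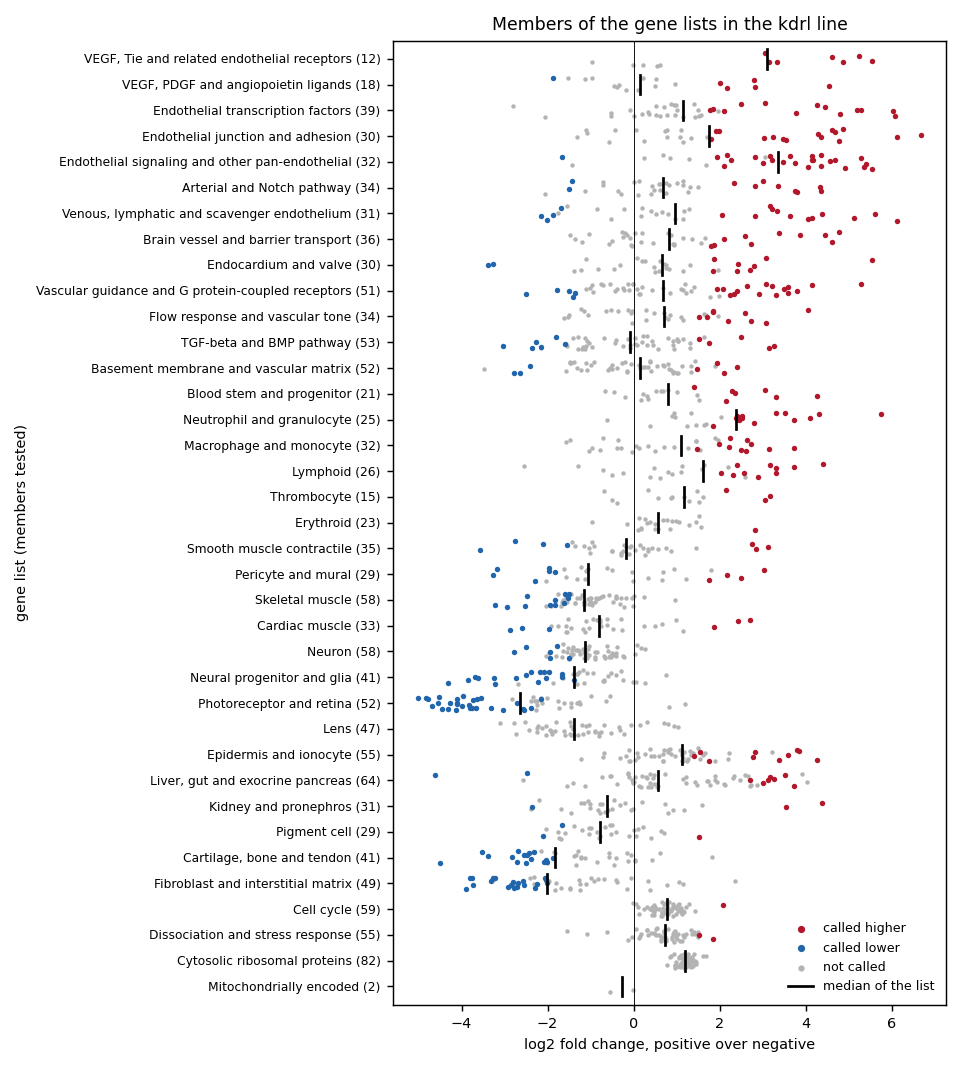
Log2 fold change, kdrl positive over negative, of the members tested in each of 37 gene lists, with the number tested after the name; black bars are list medians, red and blue points genes called higher or lower. The medians run from 3.36 for the pan-endothelial signaling list to -2.63 for the photoreceptor list.

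Part of the leukocyte genes was called higher as well. Over the 3 leukocyte lists, 33 of 83 members were called higher and none lower, with a median of 1.58; 1 macrophage member was lower with the block. In the neutrophil list 13 of 25 were called (median 2.39); its genes took 0.209% to 0.485% of reads in kdrl positive libraries and 0.0396% to 0.0793% of reads in kdrl negative libraries. lyz, lysozyme, had 7395, 5494 and 19632 in kdrl positive libraries, against 50.3, 208 and 486 in kdrl negative libraries (log2 fold change 5.74 ± 0.74, adjusted p = 0.00262). mpx, the neutrophil peroxidase, had 3916, 1502 and 4782 in kdrl positive libraries, against 195, 229.5 and 422 in kdrl negative libraries (log2 fold change 3.51 ± 0.48, adjusted p = 0.00353). Both were present in all negative libraries too, and replicate 3 was the highest positive library.

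Further granule and phagocyte genes that rose were npsn (4.10), srgn (4.30), ncf1 (2.40) and itgb2 (2.51) in log2 fold change: a secreted protease, the granule proteoglycan serglycin, a subunit of the NADPH oxidase and an integrin of leukocytes. In the macrophage list 10 of 32 were called (median 1.10), with 0.0904% to 0.271% of reads in kdrl positive libraries and 0.0532% to 0.135% of reads in kdrl negative libraries. The pan-leukocyte phosphatase ptprc had 2219, 1461 and 3795 in kdrl positive libraries, against 119.6, 305 and 474 in kdrl negative libraries (log2 fold change 3.15 ± 0.53, adjusted p = 0.00869). coro1a, an actin regulator of leukocytes, changed by 3.73 and the chemokine receptor cxcr3.2 by 2.73. Neutrophil members called numbered 6 with negative replicate 1 left out and 8 with positive replicate 1 left out, macrophage members 3 with negative replicate 1 left out, 5 with negative replicate 2 left out and 6 with positive replicate 3 left out.

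The lymphoid list had 10 of 26 called higher (median 1.61) and held 0.0760% to 0.132% of reads in kdrl positive libraries and 0.0517% to 0.0806% of reads in kdrl negative libraries. ccr9a, a chemokine receptor of thymus-homing cells, had 11066, 5605 and 4964 in kdrl positive libraries, against 104, 789 and 388 in kdrl negative libraries (log2 fold change 4.41 ± 0.65, adjusted p = 0.00455). rag1, which recombines antigen receptor genes, had 2455, 684 and 2659 in kdrl positive libraries, against 117, 191 and 479 in kdrl negative libraries (log2 fold change 2.89 ± 0.61, adjusted p = 0.0243); the call was lost for rag1 without positive replicate 1 or negative replicates 1 and 2 (adjusted p 0.0713 to 0.0997). ikzf1, the Ikaros factor of lymphoid development, changed by 3.31, and dock2, a migration factor of lymphocytes, by 3.30. Members called numbered 3 with negative replicate 1 left out and 5 with positive replicate 1 or negative replicate 2 left out.

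Of the blood stem and progenitor list 7 of 21 were called higher (median 0.80), some of which also stand on vascular lists. myb, a factor of definitive blood stem cells, had 3047, 2736 and 5189 in kdrl positive libraries, against 396, 847 and 1111 in kdrl negative libraries (log2 fold change 2.28 ± 0.44, adjusted p = 0.0169). Of the thrombocyte list 3 of 15 were called, and 5 with the block; plek, pleckstrin, changed by 3.18 (adjusted p = 0.0019). In the erythroid list 1 of 23 was called (4.35%, near the 3.17% of all genes) and 4 with the block (beside 7.08% of all genes). The called gene was the water channel aqp1a.1, also on the arterial and venous lists, at 2.82 (adjusted p = 0.0393). Its call was lost without positive replicates 1 and 2 or negative replicates 1 and 2 (adjusted p 0.0947 to 0.136). Erythroid calls numbered 0 with positive replicates 1 and 2 or negative replicates 1 and 2 left out, 2 with positive replicate 3 left out and 3 with negative replicate 3 left out. The part of blood cells in the sorted population was not tested.

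Some epidermal genes were called higher in kdrl positive cells. Of 55 tested, 10 were called higher and none lower, and the median was 1.14. With the block 19 were higher and none lower. The list took 0.742% to 2.49% of reads in kdrl positive libraries and 0.433% to 0.822% of reads in kdrl negative libraries. krtt1c19e, a keratin of the basal epidermis, had 75462, 2671 and 33134 in kdrl positive libraries, against 337, 166 and 951 in kdrl negative libraries (log2 fold change 5.64 ± 1.06, adjusted p = 0.0145). The call was lost for krtt1c19e without negative replicates 1 and 2 (adjusted p 0.0548 to 0.0624).

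cyt1, an enveloping layer keratin, had 9396, 3187 and 14270.0 in kdrl positive libraries, against 533, 528 and 1366 in kdrl negative libraries (log2 fold change 3.37 ± 0.58, adjusted p = 0.00975). cyt1l, a related keratin, had 3758, 1436 and 5748 in kdrl positive libraries, against 184, 132 and 416 in kdrl negative libraries (log2 fold change 3.85 ± 0.56, adjusted p = 0.00435), and ponzr1, a small cysteine-rich protein, 2316, 6366 and 4203 in kdrl positive libraries, against 99.8, 475 and 486 in kdrl negative libraries (log2 fold change 3.79 ± 0.61, adjusted p = 0.00728). Keratin genes are close in sequence, and reads could be split between them. For the keratins positive replicate 2 was the lowest of its group, while for ponzr1 it was the highest. Epidermal calls numbered 4 with positive replicate 1 or negative replicates 1 and 2 left out and 6 with positive replicate 3 left out. The part of epidermal cells in the results was not tested.

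**Figure D4:**
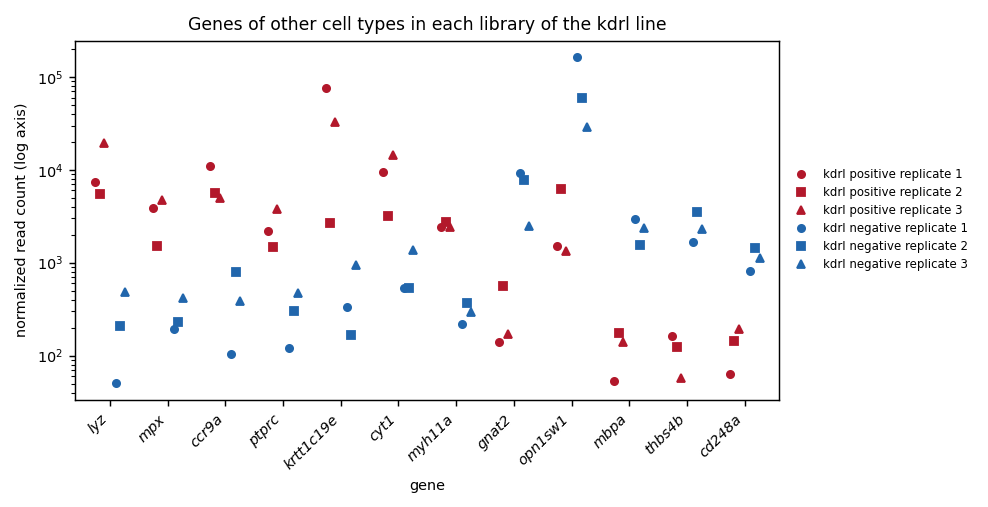
Normalized read counts (log axis) of 12 genes of other cell types in each kdrl positive library (red, left) and kdrl negative library (blue); marker shape gives the replicate number. The leukocyte and keratin genes shown and the myosin gene myh11a are higher in the positive libraries. The cone genes shown, mbpa, thbs4b and cd248a are lower there. Among the positive libraries krtt1c19e spans 2671 to 75462.

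Photoreceptor genes had the lowest median of the 37 lists. Of 52 tested, 29 were called lower (55.8%, beside 2.79% of all genes) and none higher, with a median of -2.63. opn1sw1, the ultraviolet cone opsin of zebrafish, had 1513, 6145 and 1351 in kdrl positive libraries, against 163836, 58984 and 29127 in kdrl negative libraries (log2 fold change -4.82 ± 0.74, adjusted p = 0.00564). opn1mw1, a green cone opsin, had 430.5, 1736 and 288 in kdrl positive libraries, against 35005, 30160.4 and 6753 in kdrl negative libraries (log2 fold change -5.00 ± 0.75, adjusted p = 0.00492). The negative libraries varied widely themselves, with replicate 3 lowest, yet no positive library reached them.

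The cone cascade fell with the opsins. gnat2, the cone transducin, had 141, 566 and 173 in kdrl positive libraries, against 9340.3, 7721 and 2494 in kdrl negative libraries (log2 fold change -4.55 ± 0.61, adjusted p = 0.00317). pde6c, the cone phosphodiesterase, had 169.7, 467 and 168 in kdrl positive libraries, against 4016, 4707 and 2056 in kdrl negative libraries (log2 fold change -3.83 ± 0.48, adjusted p = 0.00206). Other members called lower were grk7a (-4.53), prph2a (-4.69), gngt2b (-4.45) and rcvrn2 (-3.65) in log2 fold change: an opsin kinase, an outer segment protein, a transducin subunit and a recoverin. The long-wave opsin opn1lw2 changed by -4.78, a call lost for opn1lw2 without positive replicates 1 and 3 or negative replicates 1 and 2 (adjusted p 0.0761 to 0.154). Tandem opsin copies are near identical, and their counts are uncertain between copies. Lower members numbered 14 with negative replicate 1 left out and 18 with negative replicate 2 left out.

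In the neural progenitor and glia list 17 of 41 were called lower, with a median of -1.40. mbpa, myelin basic protein, had 53.8, 176 and 141 in kdrl positive libraries, against 2938, 1538 and 2389 in kdrl negative libraries (log2 fold change -4.31 ± 0.47, adjusted p = 0.00108). plp1a and cldnk, further myelin genes, had log2 fold changes of -2.23 and -3.22. Neuron genes had 6 of 58 called lower (median -1.13), and 15 with the block (beside 6.41% of all genes). Progenitor and glia calls numbered 3 with negative replicate 2 left out and 5 with positive replicate 1 or negative replicate 1 left out. They numbered 8 with positive replicate 2 left out and 9 with negative replicate 3 left out. Neuronal calls numbered 0 with negative replicate 1 left out and 1 with positive replicate 1 or negative replicate 3 left out. No gene of either list was called higher, though 1 neuronal gene was without positive replicate 3. rln3a, a relaxin peptide of hindbrain neurons, was among the 10 largest decreases at -4.94, with 1 to 8 normalized counts in kdrl positive libraries. Its call was lost for rln3a without negative replicates 2 and 3 (adjusted p 0.0686 to 0.082).

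Part of the connective tissue genes was called lower in kdrl positive cells. In the fibroblast and interstitial matrix list 20 of 49 were called lower and none higher (median -2.02). With the block 32 were lower and 1 higher, and 1 was higher by edgeR and without positive replicates 2 or 3. twist2, a transcription factor of dermal mesenchyme, had 59.7, 80.6 and 49.96 in kdrl positive libraries, against 819, 1261 and 793 in kdrl negative libraries (log2 fold change -3.89 ± 0.36, adjusted p = 0.000502). col6a1, a collagen VI chain, had 689, 1343 and 606 in kdrl positive libraries, against 6341, 10179 and 8458 in kdrl negative libraries (log2 fold change -3.31 ± 0.40, adjusted p = 0.00181), and fmoda, a collagen-binding proteoglycan, 177, 249 and 84.02 in kdrl positive libraries, against 1925, 3178 and 1493 in kdrl negative libraries (log2 fold change -3.75 ± 0.46, adjusted p = 0.00181). The groups were apart in each. Lower members numbered 12 with negative replicate 2 left out.

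In the cartilage, bone and tendon list 16 of 41 were lower and none higher (median -1.83). thbs4b, a matrix protein of tendons, had 162, 123 and 56.8 in kdrl positive libraries, against 1664, 3547 and 2287 in kdrl negative libraries (log2 fold change -4.50 ± 0.45, adjusted p = 0.000718). tnmd, tenomodulin of tendons and ligaments, had 15.2, 21.2 and 20.4 in kdrl positive libraries, against 178, 351 and 182 in kdrl negative libraries (log2 fold change -3.52 ± 0.45, adjusted p = 0.00248). Both were low in all positive libraries. The count was 7 with negative replicate 2 left out. cd59, a membrane inhibitor of complement that stands on no list, was among the 10 largest decreases, with 40.6, 85.4 and 299.8 in kdrl positive libraries, against 859.6, 2082 and 5600.1 in kdrl negative libraries (log2 fold change -4.39 ± 0.77, adjusted p = 0.0106).

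In the skeletal muscle list 11 of 58 were called lower and 25 with the block (median -1.15). myog, the factor of muscle differentiation, had 40.1, 18.4 and 27.3 in kdrl positive libraries, against 159, 304 and 379 in kdrl negative libraries (log2 fold change -3.23 ± 0.48, adjusted p = 0.0047). In the cardiac list 3 of 33 were higher and 3 lower (9.09% each, beside 3.17% and 2.79% of all genes), with 7 lower with the block. The 3 higher members, gata4, gata5 and gata6, also stand on the endocardial list; calls were lost for gata4 without positive replicates 2 and 3 or negative replicates 1, 2 and 3 (adjusted p 0.0612 to 0.173) and gata6 without positive replicates 1 and 2 or negative replicates 1, 2 and 3 (adjusted p 0.0578 to 0.173). actc1a, a cardiac actin, was lower, with 156, 124 and 120.4 in kdrl positive libraries, against 530.4, 1019 and 955 in kdrl negative libraries (log2 fold change -2.59 ± 0.36, adjusted p = 0.00371). Skeletal calls numbered 1 with negative replicate 2 left out, 2 with negative replicate 1 left out, 3 with negative replicate 3 left out and 7 with positive replicate 1 left out; cardiac calls lower numbered 1 with negative replicates 1 and 2 left out, and higher ones 1 with positive replicate 2 or negative replicates 1, 2 and 3 left out.

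Mural cells wrap vessels and share the tissue entry of these libraries. In the smooth muscle contractile list 3 of 35 were higher (8.57%, beside 3.17% of all genes) and 4 lower (11.4%, beside 2.79%), with a median of -0.18. myh11a, the smooth muscle myosin, was higher, with 2394, 2766 and 2429.8 in kdrl positive libraries, against 218, 365 and 295 in kdrl negative libraries (log2 fold change 3.13 ± 0.32, adjusted p = 0.000833). csrp1a, a LIM protein of smooth muscle, changed by 2.76 (adjusted p = 0.0087), while foxf1, a forkhead factor of gut smooth muscle, had 22.5, 32.1 and 20.4 in kdrl positive libraries, against 210.3, 194 and 126 in kdrl negative libraries (log2 fold change -2.76 ± 0.44, adjusted p = 0.00664). Members called lower also held cald1b and ldb3a, with log2 fold changes of -2.86 and -1.37 in the authors' deposited table. The myosin libraries of each group lay within a narrow range. Lower members numbered 1 with negative replicates 1 and 2 left out and 2 with positive replicates 1 and 2 or negative replicate 3 left out.

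The pericyte and mural list had 4 of 29 higher and 6 lower (median -1.05). cd248a and cd248b, endosialins of pericytes and fibroblasts, were lower: cd248a had 63.6, 143 and 195 in kdrl positive libraries, against 819, 1439 and 1114 in kdrl negative libraries (log2 fold change -3.17 ± 0.45, adjusted p = 0.00381), and cd248b had a log2 fold change of -3.28. pdgfrb, the receptor through which mural cells sense PDGF-B, had 215, 92.2 and 114 in kdrl positive libraries, against 344, 297 and 216 in kdrl negative libraries, and did not pass (log2 fold change -1.09, adjusted p = 0.149). mcamb, 1 of the 4 called higher, also stands on the junction list. The other higher members stand on no vascular list, among them epas1b, at 2.17 in log2 fold change in the authors' deposited table. Higher members numbered 1 with positive replicate 2 or negative replicates 1 and 2 left out, and lower ones 2 with negative replicates 1 and 2 left out.

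Housekeeping groups gave few calls. Of 82 cytosolic ribosomal protein genes none was called by limma-trend and 1 with the block, although the median was 1.196. Of these 82, 55 had every positive library above every negative one, beside 15.3% of all genes. Cell cycle genes had a median of 0.77, with 1 of 59 called higher (1.69%, beside 3.17% of all genes). With the block 6 were higher, where 7.08% of all genes were. Of these 59, 27 had every positive library above every negative one, again beside 15.3% of all genes. Dissociation and stress genes had a median of 0.74, with 2 of 55 called higher (3.64%, near the 3.17% of all genes). With the block 9 were higher and 1 lower, where 7.08% and 6.41% of all genes were. The called cell cycle member was the tubulin tuba8l. The called stress members were the flow factor klf2a and the phosphatase dusp6. Calls were lost for tuba8l without positive replicates 1 and 3 or negative replicates 1, 2 and 3 (adjusted p 0.0511 to 0.0869), klf2a without positive replicates 1 and 2 or negative replicates 1, 2 and 3 (adjusted p 0.0535 to 0.1) and dusp6 without positive replicates 1 and 2 or negative replicates 1, 2 and 3 (adjusted p 0.0847 to 0.114). Both mitochondrially encoded genes tested were not called (median -0.28). The lens list had no call of 47 genes, at a median of -1.40. With the block 3 were lower, where 6.41% of all genes were, and 1 was lower without positive replicate 2.

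The endothelial and leukocyte genes called higher differed in which positive library held most of them. Of 57 genes called higher in the receptor, transcription factor, junction and signaling lists, 55 were highest in positive replicate 2 and 46 lowest in positive replicate 3. Of the 33 called leukocyte genes, 24 were highest in positive replicate 3 and 23 lowest in positive replicate 2. Replicate 2 thus stood highest for most called genes of these 4 endothelial lists and lowest for most called leukocyte genes. Of the 12 called genes of the venous, lymphatic and scavenger list, 8 were highest in replicate 2. The same shares over all tested genes are not given. The other blood lists did not all follow the leukocyte genes. In positive replicates 1, 2 and 3 the erythroid list had a mean of 7.81, 8.83 and 8.39 (log2 scale), highest in replicate 2. The blood stem list had 8.71, 8.64 and 8.80, and the thrombocyte list 7.25, 6.71 and 7.09, both lowest in replicate 2. No test was made of these orders.

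Differences within same-numbered libraries use the same values and are no separate support. They showed this contrast for some endothelial lists only. The median of the receptor list was 2.91, 3.78 and 2.23 on the log2 scale for replicates 1, 2 and 3, and that of the neutrophil list 2.54, 1.10 and 2.48. The signaling list was also largest in replicate 2 (3.58, 4.43 and 2.33). The junction list was nearly level in replicates 1 and 2 (2.07, 2.08 and 1.73). The transcription factor list (1.40, 1.24 and 0.81) and the venous list (1.43, 1.16 and 0.24) were largest in replicate 1. The epidermal median was 1.88, 0.11 and 1.06, and the ribosomal one 1.87, 0.33 and 1.40. Both were thus smallest in the pair that was largest for endothelial receptors. The photoreceptor median was -4.62, -2.40 and -2.11, below 0 in each pair.

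**Figure D5:**
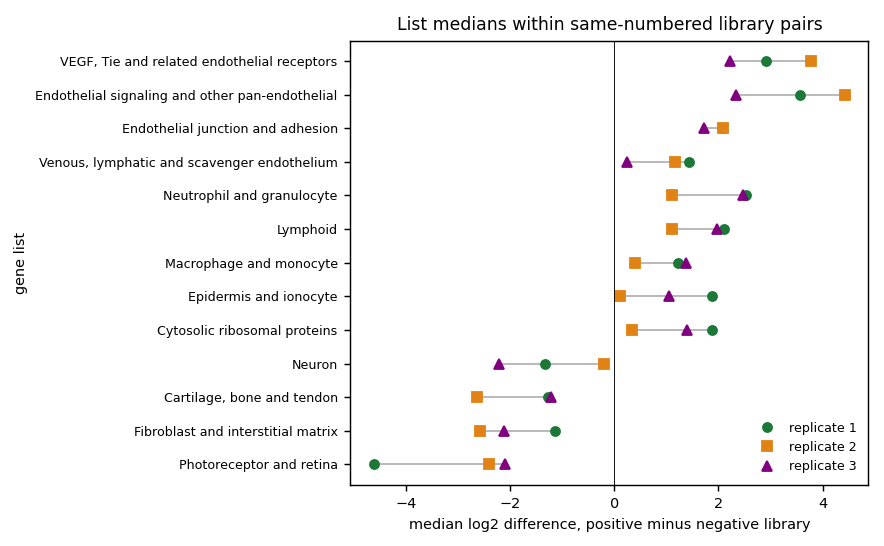
Median over list members of the log2 difference between the kdrl positive and the kdrl negative library of the same replicate number (x axis), for 13 lists; marker shape and color give the replicate. Endothelial receptor medians run from 2.23 to 3.78 and photoreceptor medians from -4.62 to -2.11, while epidermal ones run from 0.11 to 1.88.

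The authors' deposited table, made with DESeq2, called 1519 genes higher and 1509 lower of 22798 with an adjusted p, and 1483 of the 1485 calls made here were among them in the same direction. In the authors' deposited table the log2 fold change was 5.34 for kdrl and 6.89 for pecam1.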

How the data were processed

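Per the labels, RNA was read from sorted cells of the kdrl line at 5 days post fertilization. The authors deposited 1 table with a signal per gene and library, a read count divided by the size factor of its library; dividing by the smallest step gave whole reads for 100% of values (tolerance 0.1 read). They also deposited log2 fold changes, their SE, p-values and adjusted p-values of DESeq2; whether these are shrunken is not stated. The submitters' processing notes list bcl2fastq 2.14, CASAVA 1.8.2, featureCounts 1.5.2, DESeq2 1.20.0 and build GRCz11; aligner, annotation and strand setting: not given in the sources used here. Without strand, reads of overlapping or antisense genes cannot be told apart.

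Of 30220 genes, the 24903 with a value of 10 or more in at least 3 of the 6 libraries were tested by limma-trend (limma 3.58.1, R 4.3.3) on log2(value + 1), two-sided, Benjamini-Hochberg adjusted over all of them. Fold changes are on this scale, which understates those of low genes. Alternatives were edgeR 4.0.16 (quasi-likelihood) and DESeq2 1.42.0 on recovered reads, TMM or quantile scaling, pseudocounts of 0.5 and 4, no filter, a minimum of 50, a replicate block and each library left out. Deviations from group means correlated at 0.475, 0.128 and 0.422 for same-numbered libraries, all over the limit of 0.1. By this limit the numbers were taken to pair the libraries, though no label says so. Adjusted p-values are unblocked unless the block is named. Blocked counts of a list are given where they differ from the unblocked ones by more than 1.5 times. Other counts also changed with the block: 18 neutrophil genes were called higher instead of 13, and 35 photoreceptor genes lower instead of 29. Other pairs ran between -0.416 and -0.0157. Deviations from a mean of 3 libraries cancel out, so these negative values are no separate evidence of pairing. On data simulated for this comparison over 24903 genes, limma-trend recovered 1.49%, 41.8% and 89.4% of genes changed by a log2 fold of 1, 2 and 4, with 2 false calls. Only 67, 67 and 66 genes were changed, far fewer than the 1485 called in the real data. The adjusted threshold was therefore stricter there, which can make these shares understate recovery in the real data. The changed genes were drawn only from those with a mean normalized count over 50, so the shares do not cover lower genes. Counts were drawn independently for each library, without the correlation of same-numbered libraries. Since no molecular identifiers were used, reads can be copies of 1 molecule and intervals cover counting error only; depth was 10474235 to 40868765 reads.

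The libraries and the 37 gene lists were chosen with earlier results of these data known, and no set test was made. Named genes were kdrl, the 12 largest rises and 10 largest decreases (gene symbol, mean of at least 100 in the higher group, no overlap), members of vascular and blood lists, and up to 5 called members of each other list. From these, genes called in all 6 fits that leave out a library were preferred as examples.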

Additional observations from a re-analysis of the deposited data

How the results depend on the processing

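Counts of calls depended on the fit more than on scaling, pseudocount or filter. DESeq2 on recovered reads called 1599 genes higher and 1604 lower (3203 in all), and 1479 of the 1485 calls were among its own. With the replicate block, whose numbers were taken to pair the libraries, limma-trend called 1763 and 1596 (3359) and edgeR 1287 and 1381 (2668). Among the genes named in the text the block ended no call of limma-trend and made that of notch3. edgeR without a block (771 and 732) and the scaling, pseudocount and filter alternatives stayed within 1.5 times of the 789 higher and 696 lower calls. Leaving out 1 library gave 325 to 772 higher and 209 to 705 lower calls, 549 to 1477 in all, with fewer samples in each such fit; 295 higher and 136 lower calls held in all 6. Reversals of sign were limited to 4 named genes that were not called. nrp1a had a log2 fold change of -0.0043 after quantile scaling and -0.0220 to 1.1531 with a library left out, efnb2a -0.1322 to 0.8931 with a library left out, angpt1 0.1731 after quantile scaling and -1.1194 to 0.3616 with a library left out, and prox1a -0.2741 after quantile scaling and -0.0643 to 0.3666 with a library left out. The genes considered for naming numbered 253, among them those chosen after their values were seen. Of these 241 were called, a count that the naming rule fixed, since it took called members and only the 12 others were fixed symbols. Quantile scaling ended 10 of these calls and dropping the filter 21. Changes of a log2 fold of 1 were mostly not called in simulated data with few changed genes (1.49% recovered), a stricter setting than the real data. The smallest called changes here were 1.18 and -1.31, so a gene not called is not shown to be equal.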

Other observations

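Genes on no list, chosen after their values were seen, included further vessel genes. esm1, a proteoglycan secreted by endothelial cells, had 1375, 2863 and 509 in kdrl positive libraries, against 41.2, 60.03 and 48.4 in kdrl negative libraries (normalized read counts; log2 fold change 4.65 ± 0.55, adjusted p = 0.00176). f8, coagulation factor VIII, had 3675, 10569.7 and 4878 in kdrl positive libraries, against 152, 129 and 589.9 in kdrl negative libraries (log2 fold change 4.66 ± 0.59, adjusted p = 0.00233), and scarf1, a scavenger receptor, 1319, 1996 and 754 in kdrl positive libraries, against 68.6, 49.4 and 67.1 in kdrl negative libraries (log2 fold change 4.34 ± 0.41, adjusted p = 0.000502). ccm2l, a scaffold of the cerebral cavernous malformation pathway, had 1304, 2354 and 754 in kdrl positive libraries, against 74.7, 42.4 and 72.1 in kdrl negative libraries (log2 fold change 4.41 ± 0.45, adjusted p = 0.000833). The positive libraries stood above the negative ones for each. Others that rose in log2 fold change were fgd5a (3.43), fgd5b (4.22), ushbp1 (4.84), notchl (4.38) and igfbp7 (3.11), and among leukocyte genes lcp1 (3.91) and syk (3.06).

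A few genes on no list that were lower in kdrl positive cells were also chosen after their values were seen. gsc, the homeobox gene goosecoid, had 20.1, 34.8 and 18.2 in kdrl positive libraries, against 405, 540.3 and 488 in kdrl negative libraries (log2 fold change -4.29 ± 0.40, adjusted p = 0.000502). alx4a, a homeobox gene of the frontal face, had 74.4, 54.6 and 47.7 in kdrl positive libraries, against 322, 761 and 558 in kdrl negative libraries (log2 fold change -3.13 ± 0.41, adjusted p = 0.00284), and sfrp2, a secreted Wnt modulator, 397, 303 and 213 in kdrl positive libraries, against 4722, 7615 and 3857 in kdrl negative libraries (log2 fold change -4.13 ± 0.38, adjusted p = 0.000502). Each was low in all positive libraries.

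In the liver, gut and exocrine pancreas list 7 of 64 were called higher and 2 lower (median 0.56), beside 3.17% and 2.79% of all genes. With the block the counts were 19 and 2, and by edgeR 3 and 2. The 2 lower members, sst1.1 and sst1.2, encode somatostatin, a hormone, and are not exocrine genes. In the authors' deposited table their log2 fold changes were -2.34 and -5.73. cpb1, a pancreatic carboxypeptidase, had 765, 774 and 295 in kdrl positive libraries, against 86.9, 38.8 and 56.9 in kdrl negative libraries (log2 fold change 3.25 ± 0.48, adjusted p = 0.00452). The higher members numbered 2 with positive replicate 1 or negative replicates 1 and 2 left out and 23 with negative replicate 3 left out, and the lower 0 with negative replicates 1 or 3 left out and 1 with positive replicates 1 or 2 or negative replicate 2 left out. Kidney genes gave 2 higher and 1 lower of 31 (6.45% and 3.23%, the lower share near that of all genes). With the block 3 were higher and 2 lower. The higher ones without the block, podxl and dab2, also stand on vascular lists. The lower one, slc4a4a, a bicarbonate transporter, had 305, 845 and 684 in kdrl positive libraries, against 2601, 2151 and 4396 in kdrl negative libraries (log2 fold change -2.37 ± 0.45, adjusted p = 0.0151). Pigment cell genes gave 1 higher and 2 lower of 29, 5 lower with the block and 1 lower by edgeR; the higher share, 3.45%, is near that of all genes. The higher call was lost without positive replicate 1 or 3 or any 1 of the negative replicates, and the lower calls numbered 0 without any 1 of the negative replicates. The part of these cell types in the sorted populations was not tested.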
